A study of Mus musculus with 6 samples.

Results

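Cluster 2 was the largest of 7 clusters of endothelial cells (ECs) in H22 tumors of the mouse liver, and its cells carried the markers of liver sinusoidal endothelium. Its members were all cells that the deposited annotation calls endothelial and places in cluster 2, which gave 4789 of 11433 ECs and of 58794 annotated cells. Each tumor was profiled as a single 10x Genomics library, in which every captured RNA molecule carries a unique molecular identifier (UMI) and is counted once. The 6 mice were wild-type male C57BL/6J animals, 8 weeks of age when obtained, and all of them received H22 cells, a murine hepatocellular carcinoma (HCC) line, by injection into the left lateral lobe of the liver. The 3 stress mice had been exposed to chronic unpredictable mild stress for 21 days, with different stressors such as restraint, tail pinch, food deprivation or moist bedding, whereas the 3 control mice received none of the stressors. The H22 cells were grown as ascites and pooled before implantation, so all tumors descend from the same transplanted line. Cluster 2 held 840, 975 and 598 cells in control mice 1, 2 and 3, and 641, 786 and 949 cells in stress mice 1, 2 and 3.

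Liver sinusoids are wide capillaries whose endothelium has open pores and no continuous basement membrane. Their ECs clear waste from the blood through scavenger receptors and lectins, release coagulation factor VIII, and send growth and Wnt signals to the neighboring hepatocytes. The cells differ along the sinusoid, from the portal vein, where Notch and ephrin signals are typical, to the central vein, where Wnt ligands and R-spondin 3 are made. In a tumor or under inflammation, ECs can raise selectins and other adhesion molecules that hold leukocytes.

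The control libraries had been counted with Cell Ranger 9.0.0 and the stress libraries with 7.1.0, so software version and stress cannot be told apart below. The cluster 2 cells of a mouse summed to between 3010172 and 5877539 UMIs, with a median per cell of 3300 to 5853. The study had removed doublets with Scrublet, a program that scores barcodes holding more than 1 cell, and a further run of it on the deposited libraries called 71 of the 4789 cells doublets (1.48%), which were kept. In all, 386 barcode sequences occurred in more than 1 library, which touched 68 cells of cluster 2, although only 2 sequences recurred between libraries within the cluster. Levels are given in CPM, the UMIs of a gene scaled to the same total of UMIs per mouse. Markers of several other cell types were low. The summed level of 7 tumor cell markers lay between 18.4 and 51.2 CPM, that of 10 hepatocyte markers between 18.9 and 53.1 CPM, and that of 8 lymphocyte markers between 1.56 and 12.9 CPM. The 9 hepatic stellate cell markers summed to 2.66 to 14.9 CPM in 5 mice and to 93.7 CPM in stress mouse 3, where 6 neutrophil and inflammatory myeloid markers also summed to 158 CPM against at most 38.2 CPM elsewhere. Macrophage and monocyte markers summed to 497 to 722 CPM in control mice and 509 to 789 CPM in stress mice.

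The 5 markers listed for the cluster were found in most of its cells. This is a description, since the clusters were made from all genes, these included. Between 97.9% and 99.5% of the cells of a mouse had a UMI for at least 3 of Stab2, Clec4g, Gpr182, Ptprb and Adam23. At the full depth of each cell, 4289 cells had all 5 markers and 4 cells had none. Stab2 (GRCm38, chr10:86841198-87008025, minus strand) encodes stabilin-2, the receptor through which sinusoidal ECs take up hyaluronan. After each cell was thinned to 1000 UMIs, 76.1% of cluster 2 cells still had a Stab2 UMI, against 65.1% in cluster 8 and 0.385% in tumor cells, which should lack the gene. The median depth before thinning was 4375, 5306 and 27716 UMIs in these cells, and without thinning the shares were 94.9%, 91.4% and 7.86%. None of the cells of clusters 2 and 8 was shallower than 1000 UMIs, and 324 of 29638 tumor cells were left out. Of the thinned cluster 2 cells, between 28.9% (control mouse 2) and 41.3% (stress mouse 2) had all 5 markers.

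Most scavenger and lectin genes stood higher in cluster 2 than in the other ECs, which is a description, since the clusters were made from all genes of these cells. Of 17 listed receptor, lectin and secreted genes of the sinusoid, 12 were over 2-fold higher, beside 4.29% of all tested genes, and 2 were over 2-fold lower. Stab2 reached 1856, 1719 and 1908 CPM in the control mice and 1790, 2781 and 1735 CPM in the stress mice. Clec4g (chr8:3707064-3720651, minus strand), a lectin of sinusoidal ECs, reached 1927, 1287 and 2290 CPM and 2120, 1622 and 1349 CPM. Adam23 (chr1:63445891-63596276, plus strand), a member of the ADAM family without protease activity, reached 1963, 1904 and 2300 CPM and 2140, 2268 and 2276 CPM. In each of these genes the control and the stress mice overlapped. Gpr182 (chr10:127747276-127751732, minus strand), an atypical chemokine receptor, varied least, between 1190 and 1422 CPM over the 6 mice. Ptprb (chr10:116275523-116389535, plus strand), the phosphatase that restrains the angiopoietin receptor TIE2, reached 2402, 1744 and 2435 CPM in control and 3579, 2721 and 2561 CPM in stress mice, and only here were all stress mice above all control mice. Over 13 sinusoidal markers the mean level in cluster 2 was 1.69-fold (Lyve1) to 2.59-fold (Stab2) that of all other ECs, and the ratio was above 1 in each of the 6 mice for all 13 markers.

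The other clusters differed in how far they stood from cluster 2, and cluster 8 was the nearest. Mean Stab2 was 1420 CPM in cluster 8 (2847 cells), 677 CPM in cluster 18 (989 cells), 416 CPM in cluster 15 (1259 cells) and 309.8 CPM in cluster 16 (1247 cells). Of the 13 markers, 12 were higher in cluster 2 than in cluster 8, the exception being Lyve1. Clusters 15 and 16 differed from cluster 2 in more than markers. The median UMI count was 1212 in cluster 15 and 14860 in cluster 16, and 48.1% of cluster 16 cells were called doublets, as were 92.1% of the 229 cells of cluster 24 and 58.9% of the 73 cells of cluster 27. Genes lowest in cluster 2 relative to the other ECs, such as the epithelial claudin Cldn6 (ratio 0.0925) and Klf5 (ratio 0.0978), had their highest level in cluster 16, at 138 CPM and 112 CPM. Their part in the ratios to all other ECs was not tested, and values for cluster 8 alone are given beside such ratios.

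**Figure D1:**
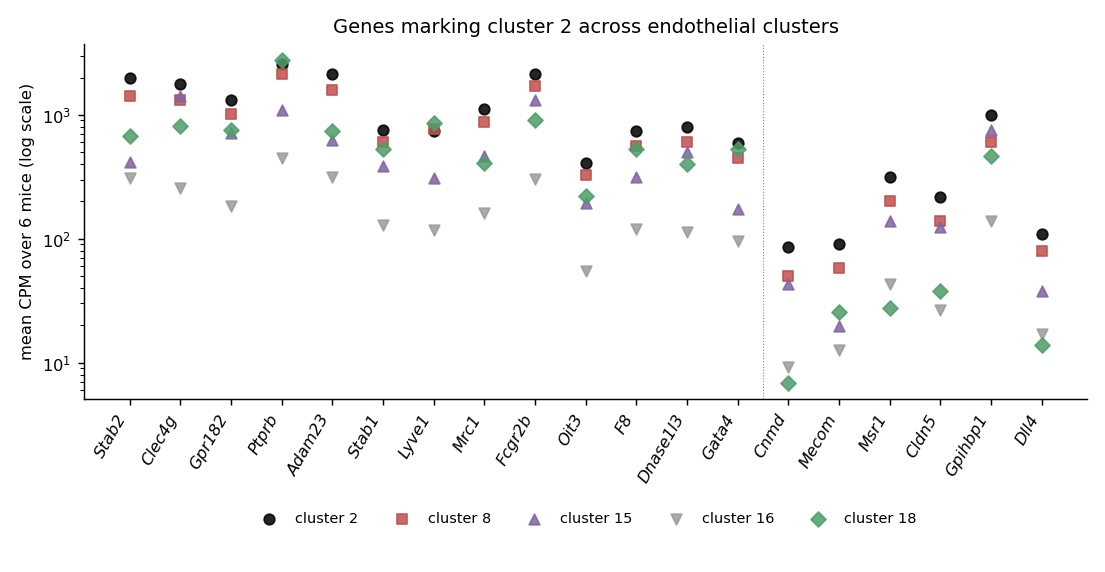
Mean level over 6 mice in CPM (log axis) of 13 sinusoidal markers (left of the dotted line) and 6 other genes with a large ratio of cluster 2 to the other ECs (right), in 5 endothelial clusters. The black circles of cluster 2 stand just above the red squares of cluster 8 for every gene shown but Lyve1, and well above the gray triangles of cluster 16.

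Genes with the largest ratio of cluster 2 to the other ECs included capillary and arterial genes beside sinusoidal ones. Cnmd, which encodes the angiogenesis inhibitor chondromodulin, averaged 63.1 ± 65.1 CPM in control and 109 ± 41.9 CPM in stress mice (SD, n = 3) and was 3.23-fold higher than in the other ECs. Mecom, a transcription factor gene, had a ratio of 2.92, Msr1, a scavenger receptor gene, 2.90, Cldn5, which encodes the tight junction protein claudin-5, 2.89, Gpihbp1, the anchor of lipoprotein lipase on capillaries, 2.76, and the Notch ligand Dll4 2.70. Lipoprotein lipase itself, Lpl, had a ratio of 2.95. Against cluster 8 alone, the 15 genes named in this way were 1.28-fold to 1.73-fold higher.

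Several leukocyte adhesion and immediate-early genes were lower in cluster 2 than in cluster 8. Mean levels in cluster 2 were 0.163 of those in cluster 8 for Icam1, 0.228 for Vcam1, 0.206 for the P-selectin gene Selp and 0.218 for the E-selectin gene Sele, all of which mediate leukocyte adhesion. The ratio was 0.0815 for Cxcl10, an interferon-induced chemokine gene, 0.141 for Fos and 0.127 for Egr1. In cells thinned to equal depth, 36.02% of cluster 2 cells had a Selp UMI against 80.3% in cluster 8, and 16.6% had a Fos UMI against 74.0%. Tumor cells had a Selp UMI in 0.375% and a Fos UMI in 38.2% of cells, so that the Fos share of cluster 2 lay below that of tumor cells. Rspo3, the R-spondin of central vein endothelium, was at 0.323 of its level in cluster 8 and Wnt9b at 0.435. Both were far higher in cluster 18, where Rspo3 averaged 2668 CPM against at most 209 CPM in any mouse in cluster 2.

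Along the sinusoid, cluster 2 carried genes of both sides. Compared with cluster 8, all 8 listed genes of the portal side had a higher mean in cluster 2, by 1.09-fold to 1.56-fold, and 2 of 8 of the central side did, Kit (1.15-fold) and Fabp4 (1.40-fold). General endothelial genes also summed higher in cluster 2 in every mouse, for example 13871 against 11985 CPM in control mouse 1. In cells thinned to equal depth, Efnb2 (14.2% against 14.7%) and Efnb1 (6.85% in both) were not more frequent in cluster 2, while the other portal genes were. The share of all genes higher in cluster 2 than in cluster 8 was not counted. The central gene Cdh13 was nearly level (ratio 0.980). Against all other ECs, 5 of 8 portal and 1 of 8 central genes were over 2-fold higher, beside 4.29% of all tested genes, and so were 5 of 8 arterial markers and 7 of 18 genes of capillary and tumor endothelium. The difference between these lists was not tested. Ntn4, encoding netrin-4, reached 614.5, 825 and 849.8 CPM in control and 670.2, 796 and 968 CPM in stress mice. Dll4 reached 152, 65.1 and 168 CPM and 86.0, 69.3 and 109.9 CPM. Neither gene separated the groups. Msr1 averaged 27.6 CPM and Dll4 13.9 CPM in cluster 18, the cluster highest in Rspo3, against 202 and 79.2 CPM in cluster 8.

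The mice of a group differed strongly from each other in cluster 2, and this sets the scale for every comparison with stress. A principal component analysis of log2(CPM + 1) put 47.5% of the variance on a first component on which control mice 1 and 3 and stress mouse 1 had positive scores (33.2, 26.998 and 13.3), and control mouse 2 and stress mice 2 and 3 negative ones (-29.9, -22.8 and -20.8). The second component, with 23.0% of the variance, had positive scores in the control mice (10.2 to 26.5) and negative ones in the stress mice (-25.9 to -8.03). Whole libraries differed along the first component too. The median UMI count over all cells was 18291, 16864.5 and 20478 in control mice 1 and 3 and stress mouse 1, and 9032, 7656 and 7166 in control mouse 2 and stress mice 2 and 3, and the tumor cell share was 70.1%, 53.6% and 59.9% against 48.8%, 41.0% and 31.7%. The part of either in the gene levels was not tested.

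Several endothelial genes had wide ranges between mice of a group. Lyve1, a hyaluronan receptor gene that is also used to mark lymphatic vessels, reached 1549, 159 and 1201 CPM in control mice 1, 2 and 3, and 963, 341 and 190 CPM in stress mice 1, 2 and 3. Ednrb, the endothelin B receptor gene, reached 1032, 38.4 and 382 CPM and 627, 41.1 and 40.5 CPM, and Cyp26b1, whose enzyme degrades retinoic acid, reached 293, 4.86 and 79.4 CPM and 145, 43.6 and 9.02 CPM. Control mouse 2 was therefore nearer to stress mice 2 and 3 than to the other control mice. The insulin receptor gene Insr, at 1597, 569.7 and 1570 CPM and 1796, 742 and 677 CPM, and the fatty acid binding protein gene Fabp4, at 3706, 723 and 2776 CPM and 1347, 1245 and 708 CPM, had their lowest values in the same mice. Pdgfb, the growth factor gene that recruits pericytes, ran the other way, at 14.0, 106 and 17.3 CPM and 27.5, 144 and 139.9 CPM. Cluster 8 showed a like range, for example 1549, 182 and 1172 CPM and 1133, 325 and 227 CPM for Lyve1. The summed RNA of 6 red cell genes, most of it hemoglobin, was also uneven in cluster 2, with 1363, 31.3 and 775 CPM in control and 178, 334 and 24.2 CPM in stress mice.

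**Figure D2:**
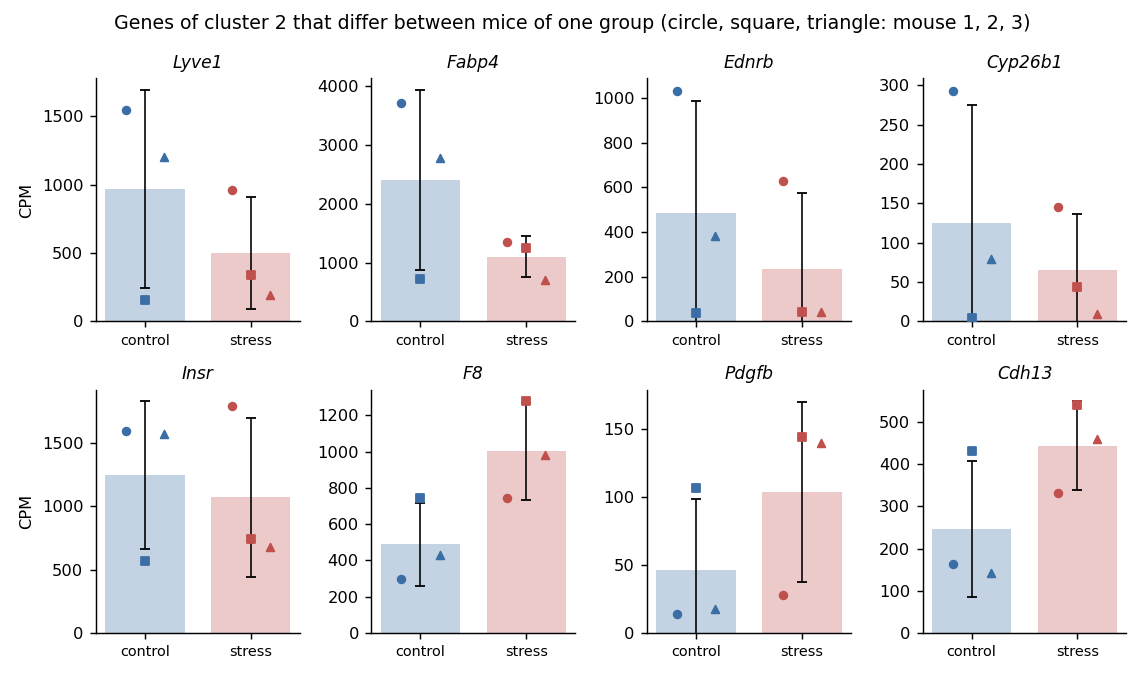
Levels of 8 genes in cluster 2 in CPM, one point per mouse (circle, square and triangle for mice 1, 2 and 3), with bars for the mean and lines for the SD (n = 3), cut at 0. For Lyve1, Ednrb, Cyp26b1 and Insr, control mouse 2 lies with stress mice 2 and 3, and stress mouse 1 lies with control mice 1 and 3.

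To ask what stress changed in cluster 2, the UMIs of its cells were added up for each mouse, and 11229 genes were tested with edgeR (quasi-likelihood F-test). At an adjusted p below 0.05, 22 genes passed (0.196% of those tested), of which 10 were higher in stress mice (0.0891%) and 12 lower (0.107%). In 1320 genes (11.8%) every stress mouse was above every control mouse, and in 997 genes (8.88%) every stress mouse was below. An unadjusted p below 0.05 was found for 13.5% of all genes. Where no other setting is named, a gene is said to pass in this fit, which had a filter on low counts and no term for the replicate number. No label states that equal replicate numbers pair the mice, so a pass with that term rests on an assumed pairing. Without control mouse 2 the count of genes passing was 169, and it was 10 when control mouse 1 was left out and 0 when control mouse 3 was. Leaving out stress mouse 1, 2 or 3 gave 16, 5 or 7 genes. Without control mouse 3, 1209 genes still had an unadjusted p below 0.05. A lower CPM in such a sum does not tell fewer cells with the RNA from less RNA per cell.

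None of the genes that pass belongs to the sinusoidal, adhesion, Notch or angiogenic lists. The 6 transcripts Cmss1, Cdk8, Lars2, Gphn, Camk1d and Gm19951 had the largest increases, by 2.58 to 3.03 on the log2 scale. Cmss1, which encodes a putative ribosomal small subunit protein, was at 350, 339 and 329.9 CPM in control and 2708, 3186 and 2268 CPM in stress mice (2.97 ± 0.17 as log2 fold change with its SE, adjusted p = 0.00200), with no overlap between groups. Lars2, which encodes the mitochondrial leucyl-tRNA synthetase, was at 589, 516 and 585 CPM and 4044, 4247 and 2838 CPM (2.68 ± 0.20, adjusted p = 0.00435). Similar steps were present elsewhere, since 5 of these 6 transcripts separated the groups the same way in all 7 other cell types with at least 10 cells in every mouse, and Gm19951 did so in 5. The mitochondrial genes mt-Atp8 (1.95 ± 0.23, adjusted p = 0.0254) and mt-Nd4l (1.49 ± 0.20, adjusted p = 0.0458) rose as well, and did so without overlap in 7 of 7 other types. All 13 mitochondrially encoded genes had a positive change in cluster 2, with a median of 0.68, and 9 of them separated the groups, beside 11.8% of all genes that were higher in this way.

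Several of the genes that fell are copies of other genes. Rpl37rt, Rpl9-ps6 and Uba52rt are retrotransposed or pseudogene copies of ribosomal protein genes, whose reads cannot be told apart from the parent's with certainty. Wdr89 fell by 1.23 ± 0.15 on the log2 scale, from 148, 163 and 123 CPM to 54.1, 72.9 and 62.1 CPM (adjusted p = 0.0303). Mcrip1, a regulator of the repressor CtBP, was at 154, 148 and 143 CPM in control and 87.2, 89.2 and 86.3 CPM in stress mice (-0.80 ± 0.10, adjusted p = 0.0353). Ctla4, best known as an inhibitory receptor of T cells, was at 32.2, 26.0 and 23.2 CPM and 5.94, 7.56 and 7.32 CPM (-1.99 ± 0.20, adjusted p = 0.0106), while the lymphocyte markers summed to 7.97 to 12.9 CPM in control and 1.56 to 8.57 CPM in stress mice. Mcrip1 and Wdr89 separated the groups the same way in 7 of 7 other cell types and Ctla4 in 4. In tumor cells, mean Ctla4 was 72.9 CPM in control and 22.9 CPM in stress mice, without overlap. In NK/T cells it was 599 and 505 CPM, with overlap. The source of the Ctla4 RNA in cluster 2 was not tested. Of the 22 genes, 18 passed in cluster 8 as well, where 29 of 10415 genes did.

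**Figure D3:**
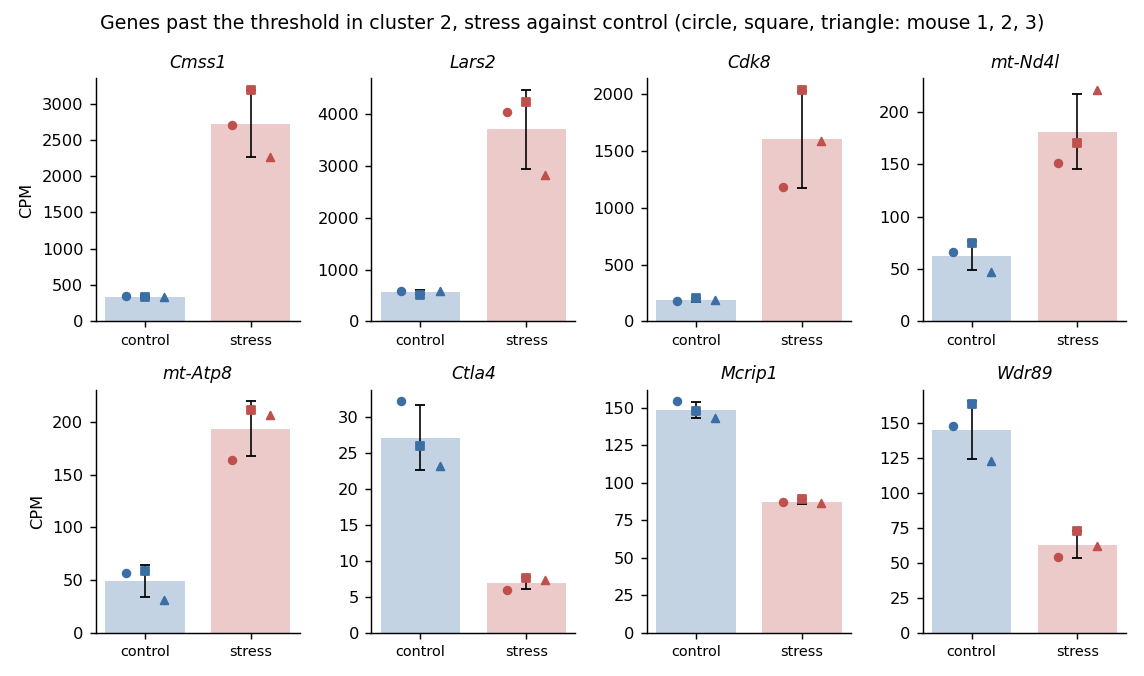
Levels in cluster 2 of 8 of the 22 genes that passed the edgeR test, in CPM, one point per mouse, with bars for the mean and lines for the SD (n = 3). Control (blue) and stress (red) mice do not overlap in any panel, and Mcrip1 lies between 143 and 154 CPM in control and between 86.3 and 89.2 CPM in stress mice.

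The genes of sinusoidal identity and function did not pass. Of 16 tested receptor, lectin and secreted genes of the sinusoid, none passed and 10 had a positive change, with a median log2 fold change of 0.16 against -0.014 over all genes tested. Coagulation factor VIII, F8, had the largest value, with 295, 742 and 428 CPM in control and 745, 1277 and 981 CPM in stress mice (0.9985 ± 0.34, adjusted p = 0.282). All stress mice were above all control mice, though stress mouse 1 by only 3 CPM over control mouse 2. F8 passed without control mouse 2 (adjusted p = 0.0474) and in edgeR with a term for the replicate number (adjusted p = 0.0440). With any other mouse left out the adjusted p was up to 0.611. Of the 16 genes, 2 were higher without overlap, F8 and Mrc1, and 1 was lower, Scarf1, beside 11.8% and 8.88% of all genes. The mannose receptor gene Mrc1 was at 918, 1012 and 1034 CPM and 1062, 1317 and 1393 CPM (0.31 ± 0.15, adjusted p = 0.425). Scarf1, which encodes a scavenger receptor of endothelial cells, was at 126, 123 and 115 CPM and 108, 110 and 103 CPM (-0.22 ± 0.10, adjusted p = 0.410). Over the 13 sinusoidal markers the adjusted p lay between 0.282 and 0.908.

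In the list of 20 VEGF, angiopoietin and ALK1 pathway genes, 19 were tested, none passed in edgeR with the filter on low counts or in DESeq2, 1 was higher in edgeR without the filter, and 4 of the 19 separated the groups with higher stress values, beside 11.8% of all genes. They were Ptprb (0.39 ± 0.21, adjusted p = 0.466), the VEGF receptor gene Kdr at 864, 1141 and 963 CPM and 1164, 1339 and 1365 CPM (0.35 ± 0.15, adjusted p = 0.385), its co-receptor Nrp1 at 330.5, 237 and 333 CPM and 408, 415 and 358 CPM (0.35 ± 0.17, adjusted p = 0.415), and its second co-receptor Nrp2. Kit, the stem cell factor receptor gene typical of the central side, was at 336, 449 and 331 CPM and 688, 646 and 554 CPM (0.72 ± 0.17, adjusted p = 0.206). Of 8 tested central genes 5 had a positive and 3 a negative change. Only 1, Kit, was higher without overlap, beside 11.8% of all genes, and 0 were lower. Kit passed with DESeq2 (adjusted p = 0.0118) and without control mouse 2 (adjusted p = 0.0391), but not with any other mouse left out. Of 12 tested Notch pathway genes 11 had a negative change with a median of -0.16, 2 were lower in all stress mice, beside 8.88% of all genes, and none passed in edgeR. Of 8 tested portal genes 5 had a negative and 3 a positive change. In this list 2 were lower without overlap, beside 8.88% of all genes, and 0 higher, beside 11.8%. The lower ones were Efnb1 (-0.95 ± 0.24, adjusted p = 0.222) and Ltbp4 (-0.61 ± 0.20, adjusted p = 0.271). Efnb1 passed with DESeq2 (adjusted p = 0.0415), without the filter (adjusted p = 0.0228) and in edgeR with a term for the replicate number (adjusted p = 0.0328).

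Immediate-early genes, which are transcribed within minutes of a stimulus or of tissue handling, made up the list with the most members lower in stress mice. None of the 15 passed the test. However, 14 of 15 had a negative change, the median was -0.70, and 10 of 15 were lower in every stress mouse than in every control mouse, where 8.88% of all genes were. The lead member was Fos (chr12:85473890-85477273, plus strand), which encodes a subunit of the transcription factor AP-1. The 250 bases before its start are printed because Fos has the lowest adjusted p of the list. The sequence is from RefSeq (GRCm38.p6, chr12:85473640-85473889, plus strand), with the core of the cAMP response element, TGACGT, and a TATA box, TATAAA, in capitals.
Fos: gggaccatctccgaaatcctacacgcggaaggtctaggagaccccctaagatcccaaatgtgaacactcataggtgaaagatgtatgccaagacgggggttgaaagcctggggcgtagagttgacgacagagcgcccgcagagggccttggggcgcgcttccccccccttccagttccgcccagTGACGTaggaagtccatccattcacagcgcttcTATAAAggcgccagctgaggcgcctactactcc

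All printed promoters were searched on both strands for the same 4 motifs, which were the cAMP response element core, the TATA box, the AP-1 site and the core of the interferon-stimulated response element, and the marked matches do not overlap. TGACGT begins 66 bases before the start and TATAAA 33 bases before it. Among 32851 RefSeq promoters, 6.47% held TGACGT and 12.4% held TATAAA in a window of this length. Such a match is a run of letters and no evidence of binding.

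Fos was at 456, 290.2 and 361 CPM in control and 136, 119 and 195 CPM in stress mice (-1.33 ± 0.24, adjusted p = 0.123), so the highest stress mouse lay below the lowest control mouse. Egr1, a zinc finger transcription factor gene, was at 235, 134 and 160.1 CPM and 109, 95.0 and 70.8 CPM (-0.98 ± 0.24, adjusted p = 0.219). Ier2 (chr8:84661331-84662852, minus strand) was at 157, 116 and 133 CPM and 80.02, 74.6 and 89.5 CPM (-0.77 ± 0.15, adjusted p = 0.158). In all 3 genes every stress mouse was below every control mouse. Junb (-0.69 ± 0.19, adjusted p = 0.228) and Jund (-0.70 ± 0.19, adjusted p = 0.223), which encode AP-1 partners of Fos, and Btg2 (-0.66 ± 0.17, adjusted p = 0.223), an antiproliferative gene, also did not overlap. Fosb was the exception to the direction, at 74.4, 52.0 and 41.5 CPM and 54.4, 63.3 and 64.5 CPM (0.09 ± 0.20, adjusted p = 0.887).

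Calls on these genes depended on the tool, the filter, a term for the replicate number and the mice kept. With all 6 mice, 13 of the 15 had an unadjusted p below 0.05 in edgeR, beside 13.5% of all genes. After adjustment 3 passed with DESeq2 and 3 in edgeR without the filter on low counts, namely Fos, Egr1 and Ier2. In edgeR with a term for the replicate number 2 passed, Fos (adjusted p = 0.0257) and Ier2 (adjusted p = 0.0495). For Fos the adjusted p was 4.46e-05 with DESeq2 and 7.09e-04 without the filter. Without control mouse 2, 8 of the 15 passed, among them Fos (adjusted p = 0.0270), whereas without any other mouse none did, and the adjusted p of Fos then lay between 0.162 and 0.529. The median over the list stayed between -0.86 and -0.59 when each mouse was left out in turn. Lower values in stress mice were also not particular to cluster 2. In all 7 other cell types with at least 10 cells in every mouse, Fos, Egr1 and Ier2 were lower in all stress mice than in all control mice, as in tumor cells, where mean Fos was 957 CPM in control and 470.3 CPM in stress mice.

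In cluster 8, Fos was at 1974, 1593 and 1923 CPM in control and 2268, 1417 and 1851 CPM in stress mice, with overlapping groups. Since the boundary between clusters 2 and 8 was drawn from the same genes, and all 15 immediate-early genes were lower in cluster 2 (0.118 to 0.592 of the level in cluster 8), both clusters were also summed. The median over the list then moved to -0.28, with 11 of 15 members negative and none past the threshold. Fos was then at -0.39 (adjusted p = 0.518), Ier2 at -0.28 (adjusted p = 0.376) and Egr1 at 0.17 (adjusted p = 0.776), so Egr1 turned in sign. Over all ECs, mean Fos was 939 CPM in control and 635 CPM in stress mice and mean Ier2 284 and 172 CPM, without overlap. Within cluster 8, however, Ier2 was higher in every stress mouse than in every control mouse. The sums over clusters 2 and 8 and over all ECs also depend on the cells of each cluster. Cluster 8 held 562, 599 and 457 control cells and, in the same mouse order, 285, 352 and 592 stress cells. Cluster 15 held 219 control and 1040 stress cells. The part of these cell numbers in the sums was not tested.

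**Figure D4:**
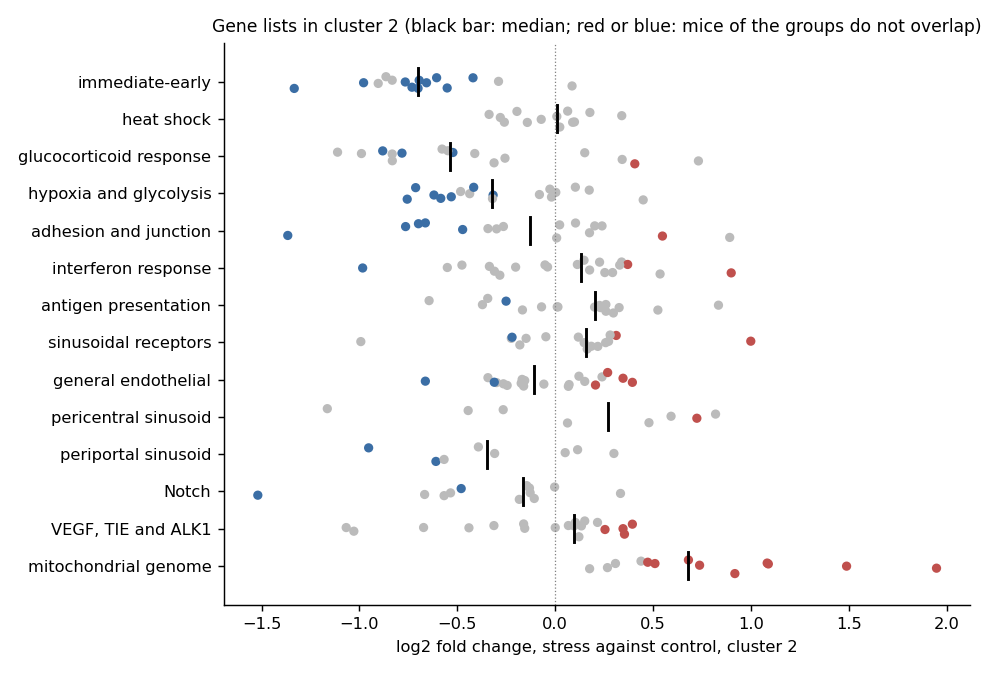
Log2 fold change of stress against control in cluster 2 for the tested members of 14 gene lists, one point per gene, with a black bar at the median. Points in red (higher in stress) or blue (lower) are genes whose 3 stress and 3 control mice do not overlap. The immediate-early list has its median at -0.70 and the mitochondrial genome list at 0.68, while the medians of the other lists lie between -0.54 and 0.27.

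Of 16 tested adhesion and junction genes, none passed in edgeR, although 6 had an unadjusted p below 0.05, beside 13.5% of all genes. In 5 of the 16 all stress mice were lower, beside 8.88% of all genes, and in 1 they were higher, beside 11.8%, with a median of -0.13. The 5 were Sele, Selp, Vcam1, Icam1 and Esam. All but Esam are genes at 0.163 to 0.228 of their level in cluster 8. The part of the boundary between the clusters in their values was not tested. Sele (chr1:164048234-164057677, plus strand) had the largest difference, and its proximal promoter from RefSeq (GRCm38.p6, chr1:164047984-164048233, plus strand) is printed for comparison with Fos, with an AP-1 site, TGANTCA, and a TATA box in capitals.
Sele: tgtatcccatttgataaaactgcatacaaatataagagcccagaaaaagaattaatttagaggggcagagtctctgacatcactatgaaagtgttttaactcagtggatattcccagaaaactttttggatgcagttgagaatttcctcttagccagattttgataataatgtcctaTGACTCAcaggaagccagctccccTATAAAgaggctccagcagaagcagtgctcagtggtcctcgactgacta

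TGANTCA begins 73 bases before the start and was present in 6.75% of all promoters, and TATAAA begins 49 bases before it. Neither overlaps another marked motif, and TGACGT has no match in this window.

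Sele was at 99.1, 59.0 and 70.8 CPM in control and 20.9, 34.5 and 34.7 CPM in stress mice (-1.37 ± 0.25, adjusted p = 0.127). The stress mice all stood below the lowest control mouse, and with clusters 2 and 8 summed the change was -0.60 (adjusted p = 0.191). Selp was at 634, 613 and 720.2 CPM and 307, 378 and 559 CPM (-0.70 ± 0.22, adjusted p = 0.265), Icam1 at 119, 147 and 107 CPM and 46.6, 93.8 and 84.6 CPM (-0.76 ± 0.25, adjusted p = 0.267), and Vcam1 at 460, 595 and 577 CPM and 347, 409 and 451 CPM (-0.47 ± 0.16, adjusted p = 0.280). Esam, a junction molecule of all ECs, was at 1580, 1192 and 1505 CPM and 972, 912 and 885 CPM (-0.66 ± 0.16, adjusted p = 0.214). With all 6 mice, Sele passed with DESeq2 (adjusted p = 3.84e-04) and in edgeR without the filter on low counts (adjusted p = 7.5e-04), and Esam with DESeq2 (adjusted p = 0.0173). Sele also passed without control mouse 2 (adjusted p = 0.0273), as did Esam (adjusted p = 0.0411), while Selp, Icam1 and Vcam1 did not pass without any mouse. Jam2 (chr16:84774123-84825928, plus strand), a junctional adhesion molecule gene that the study examined, was at 1072, 464 and 1086 CPM in control and 1321, 695 and 711 CPM in stress mice, and its partner gene F11r at 213, 199 and 201 CPM and 238, 195 and 242 CPM. Both overlapped between groups, with adjusted p of 0.984 and 0.768 by edgeR, and Jam2 had its lowest values in control mouse 2 and stress mice 2 and 3. By RT-qPCR, the study reported higher Jam2 mRNA in ECs isolated from tumors of stressed mice. It also inferred a stronger JAM2 to F11R interaction between ECs and macrophages. Cluster 2 is only a part of the ECs, and F11r in macrophages was not examined here.

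Hormone and metabolic response genes had no member past the threshold in edgeR with the filter on low counts and no term for the replicate number. Of 16 tested glucocorticoid response genes 7 had an unadjusted p below 0.05, beside 13.5% of all genes. In this list 12 had a negative change (median -0.54), 3 were lower and 1 higher without overlap, beside 8.88% and 11.8% of all genes. Nfkbia passed with DESeq2 (adjusted p = 0.0177), without the filter (adjusted p = 0.0273) and in edgeR with a term for the replicate number (adjusted p = 0.0392). The 3 lower genes were Nfkbia, the inhibitor of NF-kappa-B, at 536, 334 and 384 CPM and 271, 199 and 228 CPM (-0.88 ± 0.21, adjusted p = 0.214), Cebpd (-0.52 ± 0.16, adjusted p = 0.262) and Errfi1, while the receptor gene Nr3c1 was higher, at 130.3, 166 and 120 CPM and 167, 228 and 171 CPM (0.41 ± 0.17, adjusted p = 0.361). The classical glucocorticoid target Fkbp5, at 502, 184 and 482 CPM and 512, 252 and 237 CPM, and Tsc22d3, at 187, 95.4 and 116 CPM and 184, 70.1 and 74.5 CPM, were lowest in control mouse 2 and stress mice 2 and 3. Adrenergic receptors could hardly be measured. Adrb1 stayed at or under 0.332 CPM in every mouse, and 7 of the 11 genes of the adrenergic list were too low to test.

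Of 17 tested hypoxia and glycolysis genes, 7 were lower without overlap, beside 8.88% of all genes, and none higher, beside 11.8%, with a median of -0.32. Pkm, for pyruvate kinase, was at 307, 293 and 307 CPM in control and 171, 238 and 197 CPM in stress mice (-0.62 ± 0.14, adjusted p = 0.206), and it passed with DESeq2 (adjusted p = 0.0354). Pfkp, for phosphofructokinase, was at 42.9, 37.9 and 34.9 CPM and 21.6, 27.2 and 21.4 CPM (-0.76 ± 0.15, adjusted p = 0.168), and Gapdh was at 477, 405.5 and 429 CPM and 299, 383 and 326 CPM (-0.42 ± 0.14, adjusted p = 0.280). The others were Aldoa, Hk1, Slc2a1 and Bnip3, and none of the 7 was past the threshold in edgeR. Antigen presentation (0 of 17), proliferation (0 of 14), basement membrane (0 of 15), endothelial transcription factor (0 of 22) and angiocrine genes (0 of 18) had no member past the threshold either. In the basement membrane list 1 gene was lower without overlap, beside 8.88% of all genes, and 1 was higher, beside 11.8%. The lower one was the perlecan gene Hspg2 (-0.62 ± 0.19, adjusted p = 0.241).

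The difference of the stress effects in cluster 2 and its neighbor, cluster 8, was tested within the same mice. The clusters were drawn from all genes, the genes below included. Every p-value of this difference therefore holds only for the cells as clustered, and the part of the boundary was not tested. Of 11459 genes, 52 passed (0.454%), and in 42 (0.367%) the effect was lower in cluster 2. None of the 52 had passed in cluster 2 alone and 1 had in cluster 8 alone. Leaving out control mouse 1, 2 or 3 gave 11, 66 or 10 genes, and leaving out stress mouse 1, 2 or 3 gave 40, 19 or 180. With all other ECs in place of cluster 8, 7 genes passed.

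Of the 15 immediate-early genes, 8 passed with a lower effect in cluster 2, beside 0.367% of all genes, and none with a higher one. The boundary between the clusters was drawn from all genes, these included, so the test compares the cells as clustered, and the part of the boundary in the differences was not tested. The difference was -1.31 ± 0.15 for Fos (adjusted p = 0.00160), -1.52 ± 0.19 for Egr1 (adjusted p = 0.00224) and -0.92 ± 0.12 for Ier2 (adjusted p = 0.00253). Egr1 in cluster 8 was at 800.0, 894 and 784 CPM in control and 1697, 1385 and 769.5 CPM in stress mice, so stress mouse 3 did not follow the other stress mice. Jun (-1.02), Atf3 (-1.27), Zfp36 (-0.73), Dusp1 (-0.75) and Klf6 (-0.69) were the other members past the threshold. Fos, Egr1 and Ier2 passed without each of the 6 mice, with adjusted p of at most 0.0303, but not with all other ECs as the comparison (adjusted p = 0.0756, 0.499 and 0.899). Sele differed too (-1.14 ± 0.18, adjusted p = 0.0164), though not without control mouse 1, control mouse 3 or stress mouse 2, where its adjusted p was 0.105 to 0.117. The long noncoding RNA Neat1 (chr19:5824708-5845478, minus strand), which builds nuclear paraspeckles, had the smallest adjusted p, at 747, 186 and 459 CPM and 282, 215 and 222 CPM in cluster 2 and at 915, 285 and 617 CPM and 671, 517 and 529 CPM in cluster 8 (difference -0.85 ± 0.09, adjusted p = 4.7e-04).

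Single interferon and several heat shock genes also had a lower stress effect in cluster 2 than in cluster 8. Rsad2 (chr12:26442746-26456452, minus strand) encodes viperin, an antiviral enzyme induced by interferon. Its promoter from RefSeq (GRCm38.p6, chr12:26456453-26456702, minus strand) is printed with the core of an interferon-stimulated response element, an AP-1 site, TGANTCA, and a TATAAA on the opposite strand in capitals.
Rsad2: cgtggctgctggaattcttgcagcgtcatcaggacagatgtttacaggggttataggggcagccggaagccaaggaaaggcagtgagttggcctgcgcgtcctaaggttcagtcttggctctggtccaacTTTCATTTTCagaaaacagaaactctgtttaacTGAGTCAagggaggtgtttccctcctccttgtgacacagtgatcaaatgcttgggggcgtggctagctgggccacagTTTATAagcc

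The first begins 120 bases before the start, the second 87 bases and the last, read as TTTATA on the printed strand, 10 bases before it, without overlap, and the interferon element was present in 2.98% of all promoters.

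In cluster 2, Rsad2 was at 29.6, 25.5 and 84.7 CPM in control and 30.6, 40.6 and 52.1 CPM in stress mice, with overlap. In cluster 8 it was at 20.9, 42.6 and 120.1 CPM and 227, 244 and 244 CPM, where all stress mice were above all control mice. The stress effect was lower in cluster 2 by 2.15 ± 0.22 on the log2 scale (adjusted p = 4.7e-04), and the difference passed without each mouse and with all other ECs as the comparison (adjusted p = 0.0146). Ifih1, encoding the RNA sensor MDA5, was at 62.1, 64.3 and 80.1 CPM and 66.6, 76.6 and 91.2 CPM in cluster 2, and at 52.7, 96.6 and 136 CPM and 485, 401 and 303 CPM in cluster 8, and passed in the test of the difference. Of the 20 genes of the interferon list, which does not hold Ifih1, only Rsad2 passed in the test of the difference. None passed in cluster 2 alone in edgeR with the filter on low counts and no term for the replicate number. There 4 had an unadjusted p below 0.05, beside 13.5% of all genes. The gene Irf1 passed with DESeq2 (adjusted p = 0.00804), in edgeR without the filter (adjusted p = 0.0122) and with the replicate term (adjusted p = 0.0374). Of 13 heat shock genes 4 passed in the difference, all with a lower effect in cluster 2, beside 0.367% of all genes. They were Bag3 (-1.35), Dnajb1 (-1.01), Hsph1 (-1.36) and Hspa1b (-1.24), the last at 121, 686 and 324 CPM and 236, 343 and 470 CPM in cluster 2 and at 574, 2065 and 1019 CPM and 3145, 2725 and 2426 CPM in cluster 8. Within cluster 2 the heat shock list had a median change of 0.0079 with no separate member. Of the 13 genes, 8 were over 2-fold lower in cluster 2 than in the other ECs. The part of the cluster boundary in the heat shock differences was not tested.

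The flow-regulated transcription factor genes Klf2 and Klf4 passed in the difference as well, for the cells as clustered. Klf2, which laminar flow induces in endothelium, was at 1061, 690.1 and 849 CPM and 886, 383 and 453 CPM in cluster 2, and at 1510, 1329 and 1439 CPM and 2099, 1311 and 1404 CPM in cluster 8 (difference -0.84 ± 0.12, adjusted p = 0.00404). Klf4 had a difference of -1.08 ± 0.19 (adjusted p = 0.0187). The effect of stress was higher in cluster 2 for 10 genes, among them Fchsd2 (0.67 ± 0.11, adjusted p = 0.0164), which has a role in endocytosis, at 277, 422 and 335 CPM and 415, 708 and 516 CPM in cluster 2 and at 555, 625 and 618 CPM and 488, 681 and 577 CPM in cluster 8. Insr was also among them (0.43 ± 0.08, adjusted p = 0.0310). Plek and Clec4e, both genes of myeloid cells, had differences of 1.53 and 2.50. Clec4e was at 22.3 CPM in stress mouse 3 and at 1.76 to 5.31 CPM elsewhere in cluster 2. The neutrophil and inflammatory myeloid markers, but not those of macrophages and monocytes, were highest in stress mouse 3. The part of such markers in that result was not tested. In the opposite direction, 3 of 5 tested red cell genes passed with a lower effect in cluster 2, namely Hba-a1, Hbb-bs and Hbb-bt, where 0.367% of all genes did, beside the uneven red cell RNA given above, whose part was not tested.

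**Figure D5:**
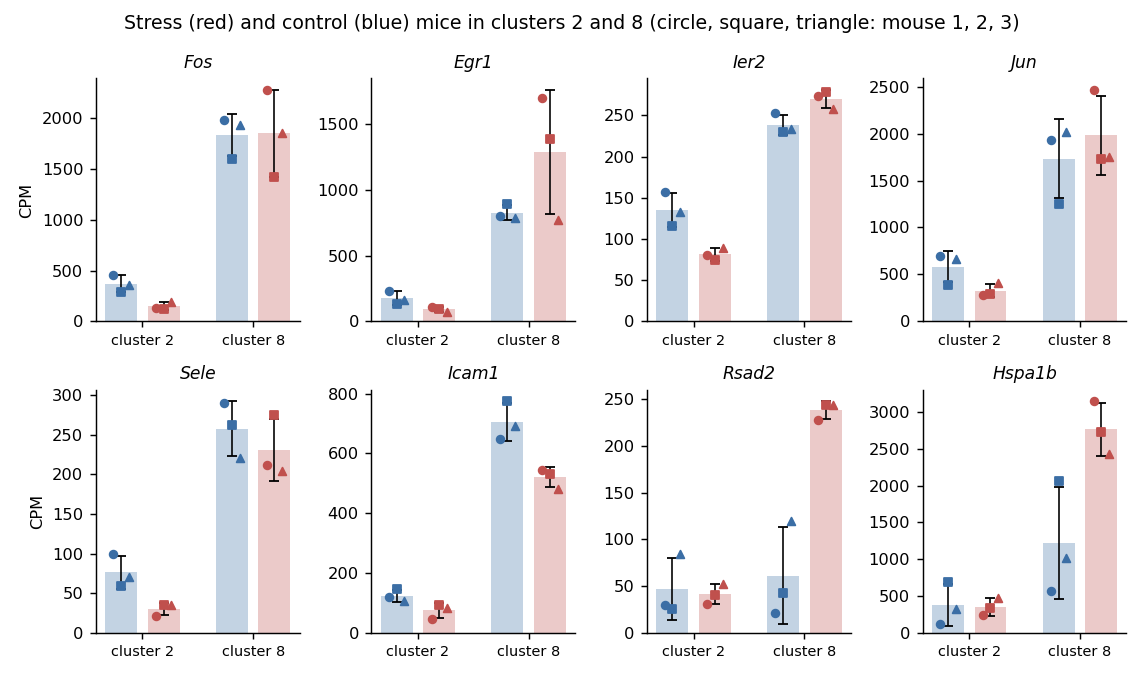
Levels of 8 genes in clusters 2 and 8 in CPM, one point per mouse (blue control, red stress), with bars for the mean and lines for the SD (n = 3). In cluster 2 the stress mice lie below the control mice for Fos, Egr1, Ier2, Sele and Icam1 and overlap them for Jun, Rsad2 and Hspa1b, while in cluster 8 they lie above for Rsad2, Hspa1b and Ier2 and below for Icam1.

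The share of ECs that fell in cluster 2 overlapped between control and stress mice. It was 42.8%, 46.3% and 39.5% in control and 41.1%, 40.3% and 40.6% in stress mice (mean difference -2.23 percentage points, exact two-sided permutation p = 0.40). With 3 against 3 mice the smallest possible p is 0.10. The 10 genes with the largest ratio of cluster 2 to the other ECs had adjusted p of 0.476 to 0.874 between groups. The share depends on which ECs are counted, because cluster 15, the shallow one, held 219 cells of control mice and 1040 cells of stress mice. Without cluster 15 the shares were 43.6%, 48.7% and 41.7% in control and 46.3%, 52.4% and 49.3% in stress mice (difference 4.65 points, exact permutation p = 0.20), and as a share of all annotated cells cluster 2 made up 7.98%, 8.30% and 6.46% against 8.85%, 8.33% and 8.97% (exact permutation p = 0.10). In the last share every stress mouse was above every control mouse. Both differences were opposite in sign to that among all ECs.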

How the data were processed

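Tumor tissue of 6 mice was profiled with 10x Genomics libraries, 1 per mouse. As deposited, the values are whole-number UMI counts for every gene in every cell, which the authors made with Cell Ranger 9.0.0 (control) or 7.1.0 (stress) according to the file headers, on mm10, with an annotation of clusters and cell types. Per the study's methods, Scrublet doublets, cells with over 20% mitochondrial reads and cells with under 200 genes had been removed, and cells were clustered with Seurat after Harmony at a resolution of 1.

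Counts of cluster 2 were summed per mouse and fitted with edgeR 4.0.16 (R 4.3.3, filterByExpr, TMM, quasi-likelihood), and p-values were adjusted after Benjamini-Hochberg, with 0.05 as the threshold. All adjusted p in the text are from edgeR unless another tool is named. The difference between clusters 2 and 8 was fitted with a term for each mouse. Alternatives included DESeq2 1.42.0, no filter, a replicate block and leaving out each mouse. Scrublet was rerun in scanpy 1.11.5. Cells are not replicates, and nothing says whether mice were processed on the same day. Cluster 2 and cluster 8 come from the same clustering of all genes, so levels between clusters carry no test. The tested difference in stress effect holds only for the cells as clustered. Genes were named by the largest fold over the other ECs, by passing a test, or as list members whose groups did not overlap, and further genes were named after their values were seen. The members and gene lists were chosen with earlier results of these data known. Promoters are from RefSeq (GRCm38.p6) and gene positions from GENCODE M21. Some genes are not reported here.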

Additional observations from a re-analysis of the deposited data

Results flagged for a closer look

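For 24 named genes the effect of stress in cluster 2 differed from that in cluster 8 when the difference itself was tested with edgeR in the same mice. The boundary between the clusters was drawn from all genes, these included, and its part in the differences was not tested. Against all other ECs 7 genes passed in place of 52, and Fos, Egr1 and Ier2 did not (adjusted p = 0.0756, 0.499 and 0.899). All values are log2 differences, cluster 2 minus cluster 8. The effect was lower in cluster 2 for the immediate-early genes Fos (-1.31), Egr1 (-1.52), Ier2 (-0.92), Jun (-1.02), Atf3 (-1.27), Zfp36 (-0.73), Dusp1 (-0.75) and Klf6 (-0.69). It was lower for the heat shock genes Bag3 (-1.35), Dnajb1 (-1.01), Hspa1b (-1.24) and Hsph1 (-1.36), and for the flow-regulated genes Klf2 (-0.84) and Klf4 (-1.08). It was also lower for Neat1 (-0.85), Rsad2 (-2.15), Sele (-1.14) and Pdk4 (-0.92), the last a kinase that restrains pyruvate oxidation. The effect was higher in cluster 2 for Fchsd2 (0.67), Plek (1.53), Depdc5 (0.92), Kazn (0.76), Clec4e (2.50) and Insr (0.43).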

How the results depend on the processing

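Of 22 genes past the threshold in cluster 2, the count was 120 without the filter on low counts, 138 with DESeq2, 74 with a replicate block and 7 without mitochondrial, hemoglobin and the 6 shared transcripts, and 0 to 169 when a mouse was left out. The setting with 7 genes itself removes the 6 shared transcripts, mt-Atp8 and mt-Nd4l, which were among the 22. Others lay close to the threshold there, such as Wdr89 (adjusted p = 0.0505 in edgeR). The deviations of same-numbered mice from their group means in log2 CPM correlated with r of 0.53, 0.40 and -0.13. For unlike numbers r ranged from -0.58 to 0.32. So few values cannot tell whether the numbers pair the mice. Of 52 genes in the difference from cluster 8, the count was 251 without the filter, 7 against all other ECs and 10 to 180 when a mouse was left out. The difference in share was 1.14 points over all annotated cells and 4.65 without cluster 15. Fosb turned to -0.029 with equal cells per mouse and to -0.32 in cells with at least 3 markers, and ranged from -0.079 to 0.35 when a mouse was left out. With clusters 2 and 8 summed, Egr1 was 0.17, Atf3 0.28 and Rsad2 1.08. Rsad2 ranged from -0.50 to 0.56 when a mouse was left out. In the difference, Fosb was 0.076 against all other ECs, and without a mouse Ier3 ranged from -0.30 to 0.088 and Selp from -0.63 to 0.050. The cause was not tested. Of 922 values for 62 genes under the alternatives, 790 kept direction and call, 86 lost and 39 gained a call.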

Other observations

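A list of 19 circadian clock genes was drawn up after values of some of them were seen, so its counts are a description. Of 15 tested in cluster 2, 6 were higher and 2 lower in all stress mice, beside 11.8% and 8.88% of all genes, and 7 overlapped. None passed in edgeR with the filter on low counts and no term for the replicate number. There 9 had an unadjusted p below 0.05, beside 13.5% of all genes. Without the filter 6 passed, with DESeq2 5, and with the replicate term 1. Nr1d1, a repressor of the clock, was at 16.6, 7.29 and 8.31 CPM in control and 28.4, 38.3 and 40.3 CPM in stress mice, and its paralog Nr1d2 at 66.0, 38.4 and 51.5 CPM and 110.0, 120.3 and 108 CPM. The clock output gene Tef was at 27.6, 18.9 and 13.3 CPM and 41.9, 48.7 and 44.4 CPM. The activator Bmal1 was at 13.97, 24.8 and 32.2 CPM and 9.38, 5.80 and 4.93 CPM, and the repressor Nfil3 at 12.999, 11.2 and 10.96 CPM and 4.06, 5.80 and 5.96 CPM. For Nr1d1, Nr1d2 and Tef every stress mouse was above every control mouse, and for Bmal1 and Nfil3 below, with adjusted p of 0.123 to 0.168 in edgeR. Clock, at 112, 105 and 132 CPM and 119, 129 and 125 CPM, overlapped between groups, as did Per1, Per2, Cry1, Cry2, Ciart and Bhlhe40, while Dbp, Per3 and Rora were higher in all stress mice. In cluster 8, Nr1d1 and Bmal1 passed (adjusted p = 0.0409 and 0.0453). The hour at which each tumor was taken is not stated in the study and was not used here.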
